A study of Mus musculus with 7 samples.

Results

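Zinc finger protein genes that were expressed in growing mouse oocytes are described here, with their levels in oocytes that lack the mitochondrial fusion protein mitofusin 1 (Mfn1-/-) and in wild-type (WT) oocytes. They were chosen by name, as genes whose symbol is Zfp, a number and at most 1 further letter, and by level, as genes whose normalized counts sum to at least 7 over the 7 libraries, an average of at least 1. Of 379 genes with such a name, 95 passed this level and 284 did not, in a table of 22877 genes of which 6226 passed it. Oocytes were taken from secondary follicles of C57BL/6J females aged 8 weeks and sequenced in pools of 5, which gave 4 WT and 3 Mfn1-/- libraries. The sample labels list 1 WT library more than the stated group size of 3. In Mfn1-/- mice a floxed Mfn1 gene is removed by a Cre transgene under the Zp3 promoter, which is active in growing oocytes only, so granulosa cells keep the gene. The controls are described as WT littermates and their flox and Cre genotypes are not stated. The table used here gives a single mean of normalized counts for each genotype, so the levels below are the authors' means, neither the spread between libraries nor their depth is known, and no test could be run. Every difference below is therefore a description of those means, and differences between genes are not replicates of each other.

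Zinc finger proteins of the C2H2 kind carry short repeats in which a pair of cysteines and a pair of histidines hold a zinc ion, and rows of such fingers read DNA sequence. The largest class of them in mammals adds a KRAB domain, which recruits the corepressor TRIM28 and through it enzymes that deposit repressive histone methylation. KRAB zinc finger genes stand in clusters that grew by duplication, and their products silence retroelements and protect imprinted DNA methylation. A smaller number of genes with the same kind of name work in splicing, ribosome quality control or chromosome segregation. Oocytes store such messages for the embryo, which relies on them before its own genome is active.

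The level of a gene is its authors' mean of normalized counts, a scale that is not named. The smallest values above the table's lowest mean of 0.01 decreased with transcript length (slope of -0.85 on log10 scales, over 12 length bins), as values per length do, and levels of different genes are compared on that scale with this limit. The difference between genotypes is the log2 of the Mfn1-/- mean plus 0.1 over the WT mean plus 0.1, so that positive values are higher in Mfn1-/- oocytes. Mfn1 itself averaged 0.0577 in Mfn1-/- against 0.616 in WT oocytes, a log2 difference of -2.18. The 12 oocyte markers of the list used here reached 1310 in Mfn1-/- against 1120 in WT oocytes for Ooep and summed to 4086 and 3674. Of these 12, 8 were higher and 4 lower in Mfn1-/- oocytes, the latter being Bmp15 (158 and 181), Dppa3 (812 and 816), Oosp1 (41.2 and 42.6) and Kit (0.679 and 0.922). Of 12 granulosa cell markers in the table, 8 had an average under 0.1, and the highest was Inha, with 1.87 in Mfn1-/- and 0.954 in WT oocytes. Of these 12, 5 were higher and 7 lower, among the latter Hsd17b1 (0.0412 in Mfn1-/- and 0.152 in WT), Cyp19a1 (0.0846 and 0.193) and Nr5a2 (0.0974 and 0.171). The defining granulosa genes Amh and Fshr were at 0.0349 and 0.016 in Mfn1-/- and at 0.02 and 0.0171 in WT oocytes, and the 5 markers of theca, stroma, blood and immune cells in the table were at or below 0.188. In RNA from pooled oocytes, a change in the RNA per cell and a change in the share of a message cannot be told apart. All genes with an average of at least 1 had a median log2 difference of 0.16, and 65.4% of them were higher in Mfn1-/- oocytes, so 0.16 is the level against which the zinc finger genes are set.

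A few zinc finger genes held much of the message. Zfp296, a factor that acts with pluripotency regulators, had the highest level, 78.3 in Mfn1-/- against 85.8 in WT oocytes, a log2 difference of -0.13. Zfp57, the KRAB protein that keeps methylation at imprinted genes and is supplied to the embryo by the oocyte, followed with 66.8 and 72.1, a log2 difference of -0.11. Zfp830, a splicing-associated protein needed in early embryos, had means of 43.3 and 46.5, and Zfp706, a small protein with a single finger, had 33.8 and 29.9. These 4 genes held 41.2% of the summed zinc finger means in Mfn1-/- oocytes and 41.6% in WT oocytes. The first finger matched is shown for the first pair, as coding sequence from GENCODE M21 with the codons of the zinc-binding cysteines and histidines in capitals. The finger pattern matched 6 times in Zfp296 and 3 times in Zfp57, and fingers that depart from it are not counted.
Zfp296: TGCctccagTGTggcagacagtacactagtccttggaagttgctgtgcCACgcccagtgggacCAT
Zfp57: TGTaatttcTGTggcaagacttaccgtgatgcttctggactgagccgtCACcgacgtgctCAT

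**Figure D1:**
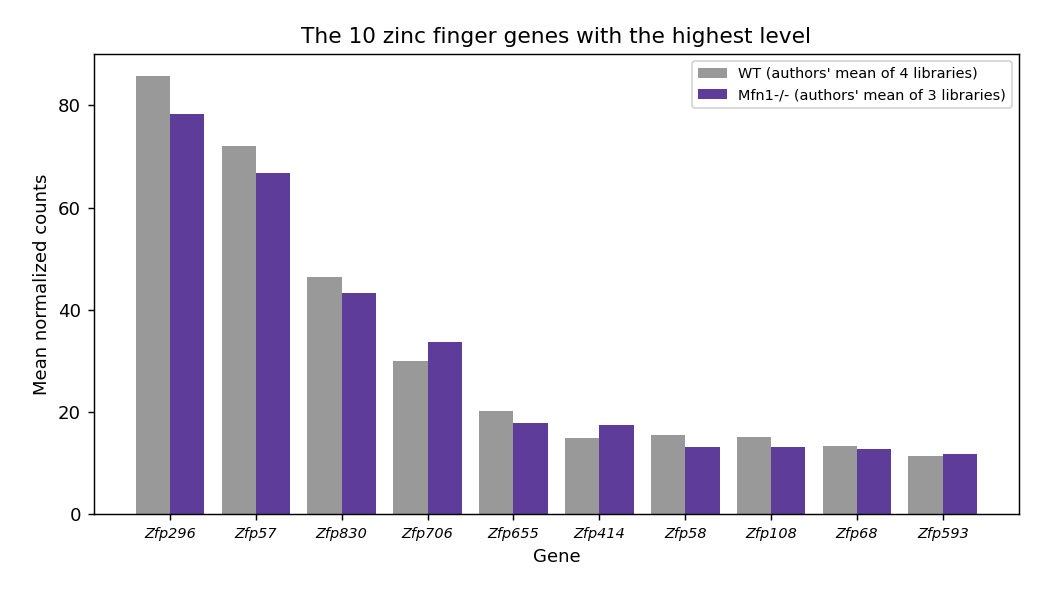
Authors' mean of normalized counts (linear axis from 0) of the 10 zinc finger genes with the highest level, as a grey bar for WT and a purple bar for Mfn1-/- oocytes, with no error bars because values of single libraries were not used. The paired bars are of nearly equal height in every gene, and the largest log2 difference among them, that of Zfp58, is -0.24.

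The 11 genes with an average of at least 10 kept nearly the same level in both genotypes, and their largest difference in either direction was 0.24 on the log2 scale. In the same order, Mfn1-/- before WT, Zfp655 had 17.8 and 20.3, Zfp58 had 13.1 and 15.5, and Zfp108 had 13.1 and 15.1. Zfp68 had 12.8 and 13.3, and Zfp593, whose yeast relative takes part in the export of the large ribosomal subunit, had 11.7 and 11.4. Zfp414 had 17.4 and 15.0, a log2 difference of 0.21, and Zfp511 had 12.1 and 10.3, a difference of 0.23. Both of these lie above the median of 0.16, and the KRAB-type genes Zfp655, Zfp58, Zfp108 and Zfp68 lie below 0. At the low end, 65 of the 95 genes had an average under 3, the range that holds all genes past 2-fold.

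The 95 genes together were near the same level in both genotypes, while most expressed genes were higher in Mfn1-/- oocytes. Of the 95, 44 were higher and 51 lower in Mfn1-/- oocytes, which is 46.3% higher against 65.4% of all 6226 genes at that level. Their median log2 difference was -0.03, with quartiles of -0.35 and 0.21, against 0.16 for all genes. Only 31 of the 95 lay above that median. The means of the 95 summed to 540 in Mfn1-/- and 563 in WT oocytes, and the 91 genes outside the 4 highest summed to 317 and 329. By contrast, the means of the whole table summed to 142576 and 130160. Large differences were few: 3 genes were more than 2-fold higher (3.16%, against 5.44% of all genes at that level). Another 1 was more than 2-fold lower (1.05%, against 3.24%). Within 1.5-fold were 79 of the 95 (83.2%), against 4781 of all 6226 genes (76.8%). Between 1.5-fold and 2-fold, 2 genes were higher and 10 lower, and the shares of all genes there were not computed.

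**Figure D2:**
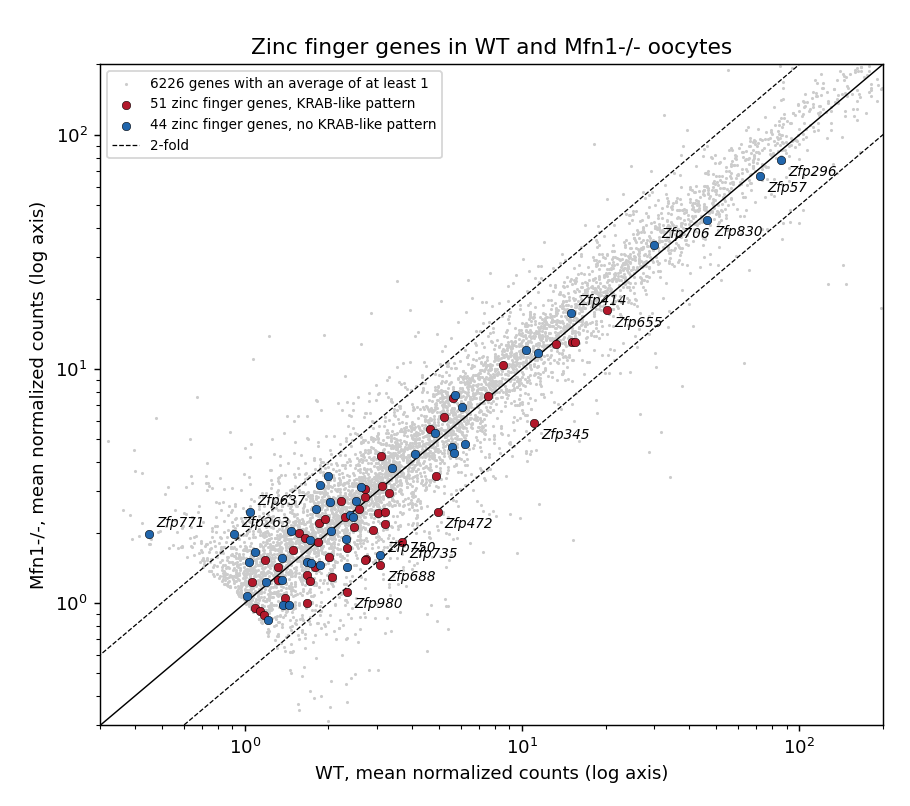
Authors' mean of normalized counts in WT (x axis) and Mfn1-/- oocytes (y axis), both on log axes, for the 6226 genes with an average of at least 1 (grey) and the 95 zinc finger genes, in red where a KRAB-like pattern was found and in blue where it was not. The solid line marks equal means and the dashed lines a ratio of 2 without the added 0.1. Genes beyond the axes are not drawn, and the zinc finger genes of high level lie close to the solid line while the labelled genes near the dashed lines have low means.

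The level threshold used the sum over both genotypes, so a gene low in one genotype could pass through the other. Of the 95 genes, 87 had both means at or above 1, 6 had only the WT mean there and 2, Zfp771 and Zfp263, only the Mfn1-/- mean. These 2 are among the 3 genes counted above as more than 2-fold higher. The 6, Zfp938, Zfp612, Zfp748, Zfp592, Zfp277 and Zfp420, are among the 51 counted as lower, a direction that the rule fixed. Of the 87, 42 were higher (48.3%), with a median log2 difference of -0.007. The share of all genes under that filter was not computed. Zfp938, Zfp598 and Zfp612 lay just inside the threshold, with sums over the libraries of 7.23, 7.28 and 7.3. Zfp410, Zfp933 and Zfp449 lay just outside it, with sums of 6.97, 6.92 and 6.81. The second of these averaged 0.361 in Mfn1-/- against 1.46 in WT oocytes, a log2 difference of -1.76, which is larger than any decrease among the 95.

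The genes furthest above WT had low means, and most had no KRAB-like pattern. Zfp771 (chromosome 7, 127244274 to 127254803, GRCm38) averaged 1.97 in Mfn1-/- against 0.449 in WT oocytes, a log2 difference of 1.91, and its transcript had the highest GC content of the group, 68.7%. Zfp637 (chromosome 6, 117841180 to 117845956) had 2.45 and 1.04, a difference of 1.16. Zfp263 (chromosome 16, 3744093 to 3750790), a repressor with 9 fingers, had 1.97 and 0.915, a difference of 1.03. These 3 were the genes more than 2-fold higher. Zfp771 and Zfp263 passed the level rule only through the Mfn1-/- mean, where they are high. With both means at least 1, only Zfp637 was more than 2-fold higher. Zfp692, which binds a DNA element in the gene of a glucose-producing enzyme, had 3.48 and 1.99, and Zfp580 had 3.2 and 1.87, with differences of 0.78 and 0.74. The next 7 were between 0.41 and 0.56, in the order Zfp575, Zfp260, Zfp574, Zfp428, Zfp963, Zfp639 and Zfp61. Of these, Zfp639 had means of 7.74 and 5.71 and lies 8631 bases upstream of Mfn1 on the same strand of chromosome 3, and Zfp61 had 7.48 and 5.62. The first fingers of the top pair are shown as coding sequence, with cysteine and histidine codons in capitals.
Zfp771: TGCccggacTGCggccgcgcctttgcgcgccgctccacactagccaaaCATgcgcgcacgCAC
Zfp637: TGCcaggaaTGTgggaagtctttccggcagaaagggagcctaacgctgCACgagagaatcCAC

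The genes furthest below WT were mostly of the KRAB type. Zfp688 (chromosome 7, 127418967 to 127422068), in which 2 fingers were counted, averaged 1.46 in Mfn1-/- against 3.06 in WT oocytes, a log2 difference of -1.02, and was the gene more than 2-fold lower. Zfp980 (chromosome 4) had 1.12 and 2.33, Zfp472 (chromosome 17) had 2.46 and 4.95, and Zfp735 (chromosome 11) had 1.83 and 3.68, with differences of -0.99, -0.98 and -0.97. These 3 lie next to the 2-fold line, and whether they pass it depends on the 0.1 that was added. Zfp980 also shares 56.1% of its stretches of 75 bases with transcripts of other genes, so its value is uncertain. Zfp345 (chromosome 2) had the highest average of the 12 largest decreases, with means of 5.87 and 11 and a difference of -0.89. Zfp750, a regulator of epidermal differentiation, had 1.6 and 3.07 (-0.90), and no C2H2 pattern was found in its coding sequence. Zfp952, Zfp383, Zfp955a, Zfp957, Zfp982 and Zfp616 followed, with differences between -0.79 and -0.53. A KRAB-like pattern was found in 10 of the 12 largest decreases and in 2 of the 12 largest increases. The median GC content was 40.2% in the first and 54.7% in the second of these sets.
Zfp688: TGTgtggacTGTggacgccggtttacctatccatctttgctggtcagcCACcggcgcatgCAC
Zfp472: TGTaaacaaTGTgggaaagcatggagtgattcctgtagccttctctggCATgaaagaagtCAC
These are the first fingers of a gene with 2 fingers counted and of one with 12, in the same notation.

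**Figure D3:**
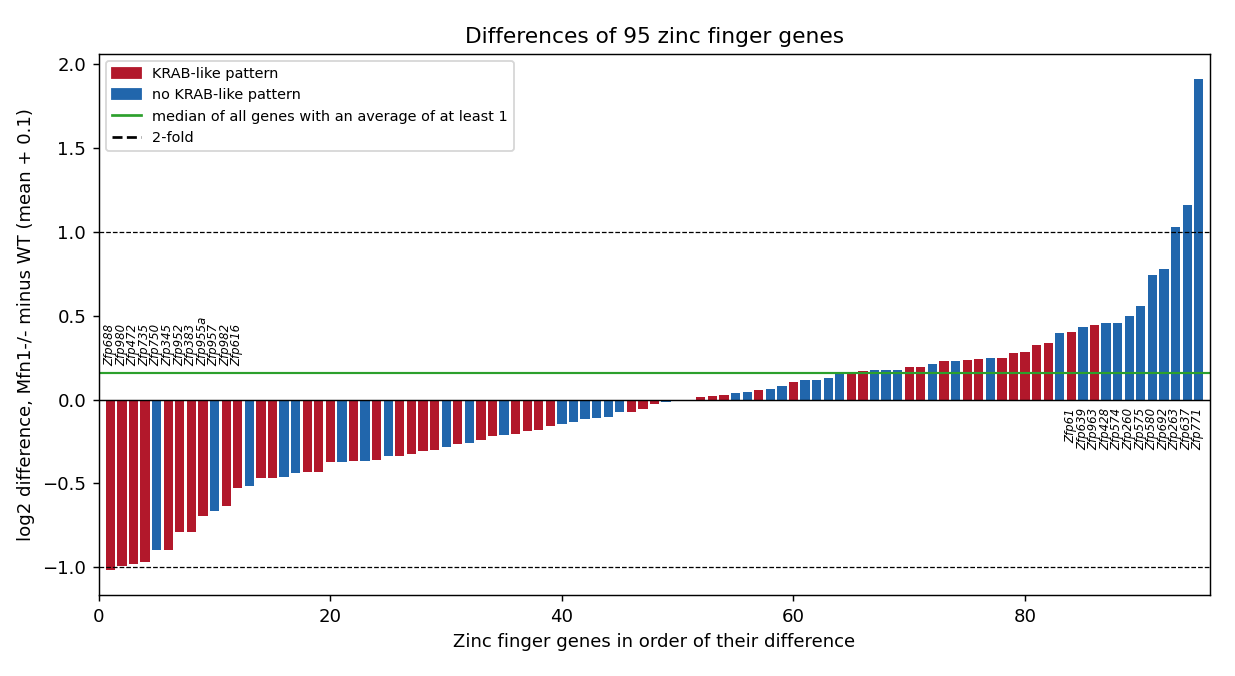
Log2 difference (Mfn1-/- minus WT, means plus 0.1) of the 95 zinc finger genes, one bar each, in rank order, red with and blue without a KRAB-like pattern. The green line is the median of all genes with an average of at least 1, 0.16, and the dashed lines mark 2-fold. The right end is mostly blue and the left end mostly red, and the 12 genes at each end are named.

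A KRAB-like pattern, searched in the proteins translated from GENCODE M21 coding sequences, was found in 51 of the 95 genes. Of these 51, 19 were higher (37.3%, against 65.4% of all genes at that level) and 32 lower in Mfn1-/- oocytes, with a median log2 difference of -0.19. Past 2-fold, 0 of the 51 were higher and 1, Zfp688, was lower (1.96%), against 5.44% and 3.24% of all genes. Of the 44 without it, 25 were higher (56.8%) and 19 lower, with a median of 0.07, and 3 were higher (6.82%) and 0 lower past 2-fold. With both means at least 1, 19 of 48 with the pattern were higher (median -0.17) and 23 of 39 without it (median 0.08). The means of the 51 summed to 179 in Mfn1-/- and 201 in WT oocytes, while those of the 44 summed to 360 and 362. The 51 genes had a median of 11 fingers and a median GC content of 40.5%, and the 44 had 5 fingers and 49.4%. The pattern is strict and misses Zfp57, whose KRAB domain is known, so the 44 are genes without a match and not genes without the domain.

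Genes that the name and level rule left out are given beside these, with no test of the difference between classes. Of 13 genes at the same level with a KRAB-like pattern and another name, 5 were higher and 8 lower, with a median of -0.27. Among them Gm15446, a relative of Zfp932 that silences retroviral elements, had means of 2.06 and 4.99 and a log2 difference of -1.24. Zfp932 shares 26.4% of its stretches of 75 bases with other genes, and 833 of these 884 match Gm15446. Its own difference was 0.24, and reads of this pair may not be told apart. Also among the 13 are Gm32687, which shares 2080 such stretches with Zfp433, and Gm14139, which shares 228 with Zfp345. In 6720489N17Rik, another of the 13, no finger was counted. Among Zfp genes with an average between 0.1 and 1, 42 of 98 with the pattern were higher (42.9%, median -0.09) and 45 of 68 without it (66.2%, median 0.14), against 55.4% of all 7601 genes at that level (median 0.07). Below an average of 0.1, 33 of 66 with the pattern (50%, median -0.003) and 29 of 52 without it (55.8%, median 0.0072) were higher, against 51.9% of all 9050 genes there. At that level the added 0.1 exceeds the averages and draws the medians towards 0, so a gap could not be judged. The 13 genes with other names have no counterpart without the pattern, and all these values come from the same libraries.

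**Figure D4:**
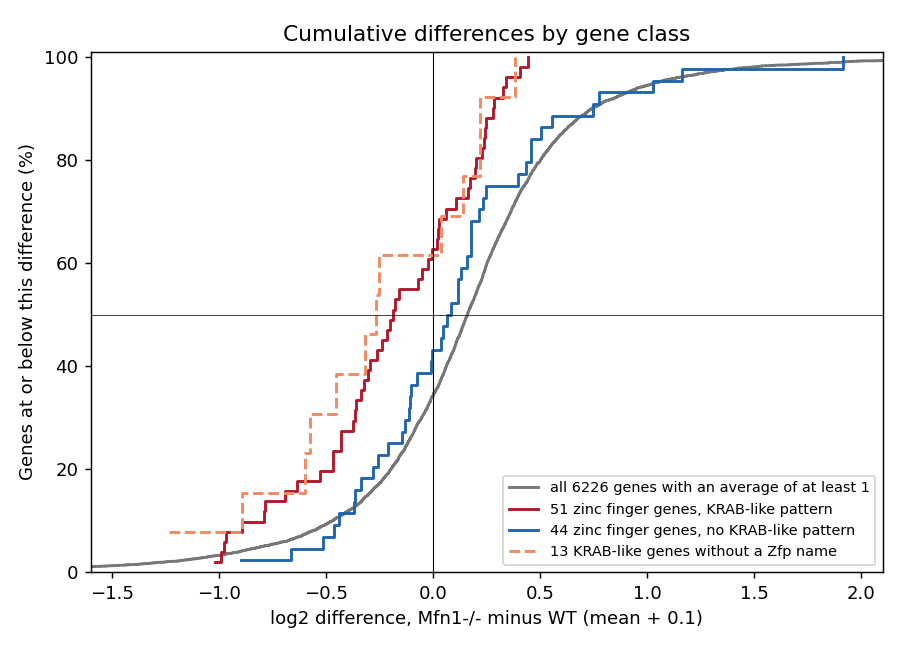
Share of genes (%) at or below each log2 difference (Mfn1-/- minus WT, means plus 0.1), for all genes with an average of at least 1 (grey), zinc finger genes with (red) and without (blue) a KRAB-like pattern, and KRAB-like genes with other names (orange, dashed). The red and orange lines lie left of the grey one, with medians of -0.19 and -0.27 against 0.16, and the blue median, 0.07, lies between them.

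GC content moved with these differences. Over all genes with an average of at least 1 and a known transcript, the median log2 difference ran from -0.11 in the lowest to 0.38 in the highest of 20 bins of GC content. Across the 95 zinc finger genes, the rank correlation of GC content and difference was 0.44, and across 6047 expressed genes it was 0.29. It was 0.33 within the 51 KRAB-like genes and 0.40 within the other 44. All genes share the same 7 libraries, so these correlations are descriptions. With the median of the gene's own GC bin subtracted, the KRAB-like genes had a median of -0.18 and the others of -0.14, so the gap between both classes was smaller and both lay below 0. Below 40% GC the medians were -0.30 for 22 KRAB-like genes and -0.21 for 5 others, and at 50% or more they were 0.24 for 5 and 0.16 for 21. From 40 to 45% they were -0.24 for 17 and 0.02 for 10, and from 45 to 50% they were 0.02 for 7 and 0.03 for 8. Zfp688, at 51.9% GC, and Zfp750 were the 2 genes more than 2-fold below the medians of their bins. Transcript length and number of fingers had rank correlations of -0.21 and -0.11 with the difference.

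**Figure D5:**
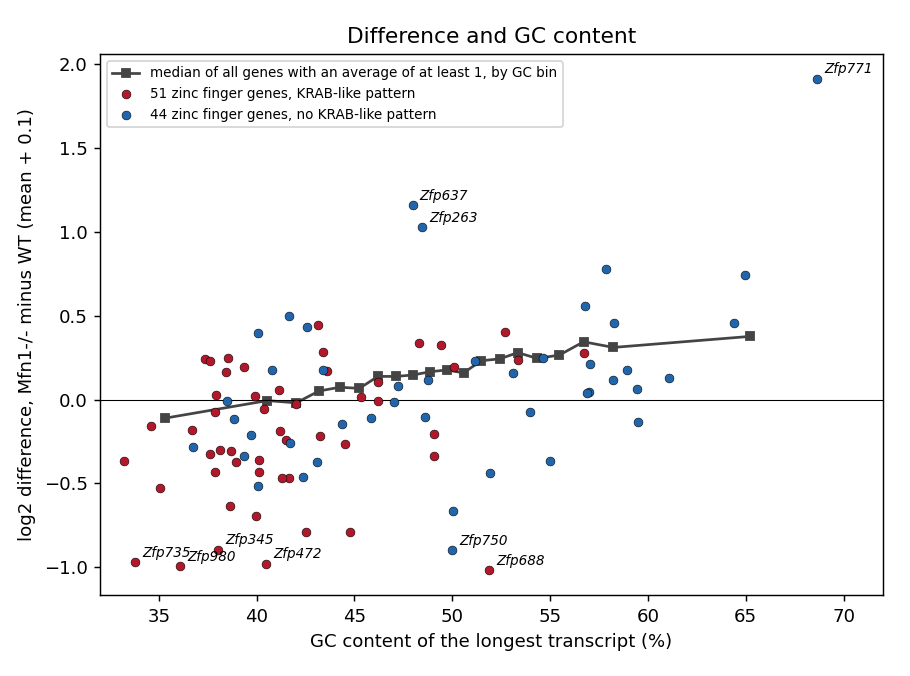
Log2 difference (Mfn1-/- minus WT, means plus 0.1) against GC content (%) of the longest transcript for the 95 zinc finger genes, red with and blue without a KRAB-like pattern. Dark squares joined by a line are the medians of all genes with an average of at least 1 in 20 GC bins, which go from -0.11 to 0.38. Most red points lie at low GC content, and the points of both colours lie more often below the line than above it.

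The lists of zinc finger genes with known roles hold genes below the level used here as well. Of all genes, 65.4% were higher at that level and 55.4% at an average between 0.1 and 1, and the counts of every list are read against these shares. Of 8 KRAB proteins with known retroelement or imprint targets, 3 were at the level used here. Zfp57 is given above, Zfp932, which silences endogenous retroviruses, averaged 6.22 in Mfn1-/- against 5.24 in WT oocytes, and Zfp961 had 2.52 and 2.57. The 5 below that level included Zfp809, which recognises the primer binding site of murine leukaemia virus, with 0.998 and 0.407, and Zfp708, with 0.281 and 0.794, log2 differences of 1.11 and -1.23. Zfp445, which acts beside Zfp57 at imprinted genes, had 0.361 and 0.328, and Zfp568 and Zfp819 had averages of 0.27 and 0.536. In all, 3 of the 8 were higher and 5 lower, with 1 past 2-fold in each direction, both below the level. Of all 3678 genes with an average between 0.3 and 1, 373 were more than 2-fold higher and 180 more than 2-fold lower.

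Of 12 proteins of RNA, splicing and ribosomes, 8 were higher and 4 lower. Of the 5 at the level used here 3 were higher and 2 lower, beside 65.4% of all genes higher there. Zfp207, a microtubule-binding protein that helps load the spindle checkpoint protein Bub3, had means of 4.66 and 5.59, a log2 difference of -0.26. Zfp598, the ubiquitin ligase that marks collided ribosomes, had 1.07 and 1.02. Zfp36, which binds AU-rich elements and speeds mRNA decay, was below the level, with 1.14 and 0.4, a log2 difference of 1.31, and Zfp622, a factor of large ribosomal subunit maturation, had 0.623 and 0.28, a difference of 0.93. Of 13 pluripotency and developmental factors, 7 were higher and 6 lower, but 6 of the 13 had an average under 0.1, and the 2 at the level used here, Zfp296 and Zfp281, were both lower. Zfp281, a regulator of the exit from pluripotency, had 4.77 and 6.2, a difference of -0.37. Zfp42, the stem cell marker also called Rex1, was nearly absent, with 0.0552 and 0.112. Of 12 chromatin, SUMO and ubiquitin partners that the table holds, 6 had a higher and 6 a lower mean, and of the 3 at the level used here 1 was higher and 2 lower. Zfp280b had 4.33 and 4.09, Zfp518a had 1.88 and 2.31, and Zfp592, which binds the chromatin reader Zmynd8, had 0.983 and 1.37. Zfp644, below the level, had 0.493 and 0.223, a difference of 0.88.

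The partners of KRAB proteins are given for comparison. Of 14 genes of the corepressor machinery, 7 were higher and 7 lower, and of the 4 at the level used here 2 were higher and 2 lower. Of all genes with an average between 0.1 and 1, 55.4% were higher, and at the level used here 65.4%. Trim28, the corepressor that KRAB domains bind, averaged 1.93 in Mfn1-/- against 1.54 in WT oocytes, a log2 difference of 0.31. Setdb1, the histone H3 lysine 9 methyltransferase recruited by it, had 1.74 and 1.88, a difference of -0.11. Cbx1, a reader of that methylation, had 6.89 and 5.32, a difference of 0.37. Ehmt2, another methyltransferase, was more than 2-fold higher, with 0.464 and 0.13 at a level below 1.

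Neighbouring genes did not share a direction as a rule. With members closer than 1000000 bases joined, 50 of the 95 genes stood in 17 runs, of which 11 held genes of both directions, 5 only lower genes and 1 only higher genes. On chromosome 17, from 32965814 to 33631779, the KRAB-like genes Zfp472, Zfp952, Zfp955a and Zfp955b were lower and Zfp414 was higher, with a median of -0.69. On chromosome 7, from 24193947 to 25083492, 5 of 7 genes were higher, with a median of 0.41. On chromosome 7, from 127233061 to 127449158, Zfp771 and Zfp688, the genes with the largest increase and the largest decrease, stood in the same run with Zfp553 and Zfp689. The run with only higher genes, on chromosome 7 from 5014415 to 5053723, held Zfp524, Zfp865 and Zfp580, none of which had a KRAB-like pattern.

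Shared sequence limits the values of some of these genes. Of the 95 genes, 51 shared at least 1 stretch of 75 bases, on either strand, with the transcript of another gene, and 14 shared over 20% of such stretches. A stretch has the length of a read, but reads were paired, and whether the other read of a pair could place them was not examined. Some of the sharing is between duplicated genes and some with annotated genes at the same place. Of the 14, Zfp58 and Zfp524, for example, overlap Gm26965 and Gm44973, their main partners in sharing, on the same strand. The counting rule for reads that match several genes is not stated, so values of these 14 are uncertain. They include Zfp980 and Zfp955a (37.1% shared), among the 12 largest decreases, and Zfp963 (37.7%), among the 12 largest increases. Zfp932 is another of the 14, and most of its shared stretches match Gm15446. Zfp960 and Zfp97, neighbours on chromosome 17, have coding sequences of 1638 bases that differ at 30 bases, and Zfp960 had means of 1.25 and 1.32 while Zfp97 had 2.29 and 1.94. Zfp955a and Zfp955b, of 1635 bases with 29 differences, had 1.0 and 1.68, and 2.06 and 2.89. The first 150 of 507 identical bases at the start of both coding sequences, and the stretch of 120 bases where the first pair differs most (bases 1225 to 1344, differing bases in capitals), show how little sequence separates them.
Zfp960 and Zfp97: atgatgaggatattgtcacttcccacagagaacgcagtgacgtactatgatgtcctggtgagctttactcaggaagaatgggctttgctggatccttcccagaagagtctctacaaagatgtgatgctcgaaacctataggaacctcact
Zfp960: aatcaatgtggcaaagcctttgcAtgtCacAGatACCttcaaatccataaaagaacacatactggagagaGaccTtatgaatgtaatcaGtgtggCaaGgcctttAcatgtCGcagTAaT
Zfp97: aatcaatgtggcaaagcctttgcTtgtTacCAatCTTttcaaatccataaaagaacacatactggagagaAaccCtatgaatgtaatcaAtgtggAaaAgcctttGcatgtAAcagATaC
Leaving out the 14 genes gave 36 higher and 45 lower of 81 genes, with a median of -0.05. Exons of 21 genes overlapped those of a gene on the opposite strand, and the library kit does not mark strand, so reads of both cannot be told apart. The largest such overlap, 77.9% of exonic bases, was that of Zfp593 with E130218I03Rik.

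The start sites of both classes differed in CpG content. A promoter in the RefSeq table for GRCm38.p6 was found for 81 of the 95 genes, and the first one listed was taken. In the 250 bases before the start site, KRAB-like genes had a median of 8 CG dinucleotides (45 genes) and the others of 17 (36 genes), against 16 in expressed genes and 6 in all promoters. The genes at both ends of the ranking did not divide fully by this measure. Zfp771 had 18, Zfp637 had 19 and Zfp263 had 14, while Zfp735 and Zfp980 had 1 each, Zfp345 had 3, Zfp472 had 8 and Zfp688 had 18. A CG-rich pair and a CG-poor pair are shown from 5' to 3' on the plus strand, with each CG in capitals, at chr6:117840931-117841180, chr16:3743849-3744098, chr11:73688528-73688777 and chr4:145670447-145670696.
Zfp637: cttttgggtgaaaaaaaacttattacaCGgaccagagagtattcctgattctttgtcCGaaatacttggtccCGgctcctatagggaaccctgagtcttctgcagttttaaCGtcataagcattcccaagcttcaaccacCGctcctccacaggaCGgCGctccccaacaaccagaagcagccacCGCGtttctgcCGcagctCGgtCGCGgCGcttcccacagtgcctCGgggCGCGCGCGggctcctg
Zfp263: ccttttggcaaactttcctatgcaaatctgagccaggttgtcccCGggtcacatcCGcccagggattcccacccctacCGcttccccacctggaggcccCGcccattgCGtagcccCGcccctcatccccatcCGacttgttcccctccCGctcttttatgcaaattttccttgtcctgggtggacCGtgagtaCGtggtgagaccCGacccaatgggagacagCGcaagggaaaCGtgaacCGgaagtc
Zfp735: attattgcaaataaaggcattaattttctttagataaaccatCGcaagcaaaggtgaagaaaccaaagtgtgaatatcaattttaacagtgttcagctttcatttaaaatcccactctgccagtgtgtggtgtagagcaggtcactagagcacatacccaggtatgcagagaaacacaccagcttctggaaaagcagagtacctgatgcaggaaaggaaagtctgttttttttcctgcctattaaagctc
Zfp980: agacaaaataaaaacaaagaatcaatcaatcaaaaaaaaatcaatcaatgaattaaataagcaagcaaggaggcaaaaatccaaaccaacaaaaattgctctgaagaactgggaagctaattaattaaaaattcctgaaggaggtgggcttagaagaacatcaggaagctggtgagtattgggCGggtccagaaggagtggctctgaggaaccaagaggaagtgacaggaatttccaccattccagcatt
In windows of 300 bases around the start, read on both strands, the ETS-type motif CCGGAAGT was found in 10 of 81 promoters (12.3%), against 11.4% of expressed genes and 4% of all promoters. The TATA motif TATAAA was found in 3 of 81 (3.70%), against 7.90% and 14.2%. The amino acid response motif TGATGNAAN was found in 0 of 81, against 2.57% and 4.04%. A match or its absence says only which letters are in these windows.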

How the data were processed

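RNA was sequenced from 7 libraries, 4 WT and 3 Mfn1-/-, grouped by their labels. Per the methods, adapters were removed with Cutadapt, STAR placed the filtered reads on GRCm38/mm10, and the authors compared genotypes with DESeq2 on gene counts not used here; the annotation, the normalization and the treatment of reads with several matches are not given in the sources used here. The authors deposited, as signal, the average normalized count of each genotype and a total over libraries. In 100% of genes the total matched the means weighted by 3 Mfn1-/- and 4 WT libraries, with a tolerance of 1%. The table also holds the authors' ratio, fold change, p-value and FDR, which were not used.

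Log2 differences were computed with a pseudocount of 0.1 and described beside all genes with a sum of at least 7. The alternatives were other pseudocounts, level filters, folds and names, and subtraction of the median of expressed genes. Subtraction by GC bin and leaving out genes with shared sequence were chosen after seeing the data. Positions, fingers, KRAB-like patterns, GC content and transcript length came from GENCODE M21, in which all 379 Zfp names were found. A finger was counted as C, 2 to 4 residues, C, 12 residues, H, 3 to 5 residues, H in the longest coding sequence. A KRAB-like pattern was a fixed arrangement of residues of the KRAB A box in any annotated coding sequence. Named genes were Mfn1, the 12 largest increases and decreases, the 10 highest levels, 3 genes on each side of the level threshold and members of the lists. Genes of clusters, overlaps, shared sequence and promoters, and Gm15446, were named after their values were seen. The zinc finger genes and all lists were chosen with earlier results of these data known. The code was tested on simulated data. Python 3.11.15, numpy 2.4.6, pandas 2.3.3 and scipy 1.17.1 were used.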

Additional observations from a re-analysis of the deposited data

How the results depend on the processing

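Pseudocounts, level filters, folds and name rules cannot change the direction of a gene, so direction is no check of these choices. The median of the zinc finger genes without a KRAB-like pattern, 0.07, went below 0 with either subtraction named below. The median of all zinc finger genes, -0.03, was 0.03 with sums of at least 35, 0.01 with no filter and 0.02 with further names added. The counts past the fold threshold were small and moved with nearly every choice. With a pseudocount of 0.01, 4 genes were more than 2-fold lower (Zfp688, Zfp980, Zfp472 and Zfp735), and with a pseudocount of 1 the counts were 1 higher (Zfp771) and 0 lower. With the median of expressed genes subtracted, 6 genes were more than 2-fold lower, the median difference was -0.19 and 32.6% of the 95 genes were higher. By construction, 3113 of all 6226 genes are higher after this step. The KRAB-like genes and the others had medians of -0.35 and -0.09. With the GC bin median subtracted, a step chosen after seeing the data, 2 genes were lower past 2-fold, the median was -0.15 and 32.6% were higher. By construction, 3019 of the 6047 genes with a GC content are higher after that step. The genes without a KRAB-like pattern then had a median of -0.14. The share of all genes past the fold in each direction was not computed after either subtraction, nor for any other alternative given here. Those counts therefore have no background beside them. With sums of at least 3.5, 5 genes were higher and 5 lower of 144, and with sums of at least 35 both counts were 0 of 23 and the KRAB-like median was -0.01 over 10 genes. With both means at least 1, 1 of 87 was more than 2-fold higher and 1 lower. With no filter, 8 of 379 were higher and 6 lower, and the KRAB-like median was -0.03. With Zbtb, Zkscan and Zscan names added, 8 of 116 were more than 2-fold higher and 1 lower. At 1.5-fold the counts were 5 higher and 11 lower, and at 3-fold 1 and 0. The difference of Mfn1 was -3.21 and -0.61 with pseudocounts of 0.01 and 1, and that of Zfp771 was 1.04 with a pseudocount of 1.

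No paired analysis was possible because the table gives genotype means and no values of single libraries. For the same reason no replicate was left out. The level limits the small differences: 65 of the 95 genes had an average under 3.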

Other observations

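Some zinc finger genes lie outside the name rule. Of 8 Zscan and Zkscan genes with an average of at least 1, 6 were higher in Mfn1-/- oocytes and 3, Zscan4c, Zscan4d and Zscan4f, were more than 2-fold higher, with the highest log2 difference at 3.57, while the median of the 8 was 0.13. Zscan4 genes are best known from the mouse embryo at the time its genome is activated, and they are near-identical copies, so their reads cannot be assigned with certainty. Of 8 Zbtb genes, 5 were higher, with a median of 0.10 and a highest difference of 1.03. At that level 65.4% of all genes were higher and 5.44% were more than 2-fold higher.

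Zfp36l2, an AU-rich element binding protein needed for fertility of the oocyte, is left out by the name rule, and averaged 3.32 in Mfn1-/- against 1.31 in WT oocytes, a log2 difference of 1.28. Its relatives Zfp36 and Zfp36l1 had differences of 1.31 and 0.62 at averages of 0.719 and 0.0591. These values were seen before they were chosen for mention, and no test was possible.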
